A study of Mus musculus with 8 samples.

Results

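The constitutive proteasome was described through the transcripts of 30 of its genes in mouse cerebellum, out of 17700 genes listed for each library. The genes were taken by name and all 30 were found and had enough counts to be tested. They comprise the 7 subunits of the 20S alpha ring (Psma1 to Psma7), the 4 non-catalytic subunits of the 20S beta ring (Psmb1 to Psmb4), the 6 ATPases of the 19S cap (Psmc1 to Psmc6) and 13 non-ATPase genes of that cap (Psmd genes). RNA came from 8 samples of cerebellum of C57BL/6JN mice with no transgene or treatment named. The old group held 2 males of 83 and 93 weeks and 2 females of 83 and 102 weeks. The young group held 2 males of 19 weeks and 2 females of 19 and 22 weeks. The comparison asked how transcript levels differ with age. Nothing in the labels says beyond age, sex and number that the libraries are separate animals, so p-values measure the spread between these samples.

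The proteasome is the protease that degrades proteins tagged with ubiquitin in the cytosol and nucleus. Its 20S core is a barrel in which outer alpha rings form a gated entrance and inner beta rings hold the proteolytic sites. The 19S cap recognises ubiquitin chains, removes them, and unfolds the substrate with a ring of ATPases that docks on the alpha ring. In neurons this system turns over synaptic and damaged proteins. Its subunit genes are known to be induced together by the transcription factor NRF1, encoded by Nfe2l1, when proteasome activity is low.

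Total gene counts were 6079485 to 7236720 per library, and each member had between 41 and 1713 counts in every library. The defining markers of cerebellum were present, with Cbln3 of granule neurons at 802 to 1494 CPM and Car8 of Purkinje cells at 1025 to 1499 CPM. CPM are counts scaled to a common library total after TMM normalization. Granule neuron markers summed to 4394 to 6105 CPM in old and 4839 to 7320 CPM in young libraries, with none of the 14 at 0 in all libraries. Microglia markers summed to 235 to 475 CPM in old and 145 to 188 CPM in young libraries, with none of the 12 at 0 in all libraries. Choroid plexus markers ranged from 38.7 to 1048 CPM and liver genes from 0.682 to 84.2 CPM over the libraries, with none of these genes at 0 throughout. In bulk tissue, fewer cells of a type and less RNA per cell cannot be told apart.

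The promoters of 4 cap genes are shown because 3 of them (Psmc2, Psmd2 and Psmd8) had every old value below every young value, while Psmd11 had the highest log2 fold change of the non-ATPases. Each is the RefSeq window on GRCm38.p6 from 250 bases before to 50 bases after the gene's start, read 5′ to 3′ on the gene's strand. Capitals mark the Ets core CCGGAA on either strand. The windows lie at chr5:21785025-21785324 (plus strand) for the first of 2 windows of Psmc2, chr16:20651402-20651701 (plus) for Psmd2, chr7:29180624-29180923 (minus) for Psmd8 and chr11:80428365-80428664 (plus) for Psmd11.
Psmc2: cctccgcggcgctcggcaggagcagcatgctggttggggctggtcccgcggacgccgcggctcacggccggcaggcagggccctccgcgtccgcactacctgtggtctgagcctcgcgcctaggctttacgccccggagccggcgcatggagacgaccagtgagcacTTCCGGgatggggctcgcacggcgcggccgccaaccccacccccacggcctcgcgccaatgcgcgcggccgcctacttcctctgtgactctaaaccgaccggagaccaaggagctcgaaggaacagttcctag
Psmd2: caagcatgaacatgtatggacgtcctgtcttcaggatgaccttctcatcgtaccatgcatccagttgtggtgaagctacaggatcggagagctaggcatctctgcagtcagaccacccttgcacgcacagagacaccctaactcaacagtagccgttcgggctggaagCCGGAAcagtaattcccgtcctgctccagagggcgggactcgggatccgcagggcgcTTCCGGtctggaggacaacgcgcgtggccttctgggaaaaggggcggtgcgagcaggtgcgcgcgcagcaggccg
Psmd8: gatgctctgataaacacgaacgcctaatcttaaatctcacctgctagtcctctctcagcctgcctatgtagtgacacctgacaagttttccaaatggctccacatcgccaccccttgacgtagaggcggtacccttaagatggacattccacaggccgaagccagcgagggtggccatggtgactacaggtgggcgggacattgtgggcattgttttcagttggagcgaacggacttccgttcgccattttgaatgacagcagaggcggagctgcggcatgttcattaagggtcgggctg
Psmd11: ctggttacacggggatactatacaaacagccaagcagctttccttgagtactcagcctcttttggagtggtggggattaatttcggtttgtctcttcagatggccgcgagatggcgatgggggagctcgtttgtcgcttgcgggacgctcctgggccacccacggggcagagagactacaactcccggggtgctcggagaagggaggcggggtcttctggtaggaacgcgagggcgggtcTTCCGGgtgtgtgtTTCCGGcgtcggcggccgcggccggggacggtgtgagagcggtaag

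Psmd2 and Psmd11 each held 2 matches to the Ets core and Psmc2 held 1, while these letters are not in the Psmd8 window. Of the 25 members with a window, 15 (60%) held the Ets core, against 28.9% of the 11138 tested genes with a window and 14.9% of all 32851 windows. By sub-complex, the Ets core was found in 4 of 5 ATPase genes, 7 of 11 non-ATPase genes, 3 of 7 alpha ring genes and 1 of 2 beta genes. The antioxidant response element core TGACNNNGC, the class of sequence that NRF1 binds, was found on either strand in 3 of the 25 members (12%) and in 16.7% of tested genes. Those 3 were Psmc6, Psmd9 and Psmd12. In Psmd9 the match overlapped a GC box (GGGCGG). GC boxes were present in 16 members (64%, against 67.5% of tested genes) and CCAAT boxes in 11 (44%, against 42.6%). The windows had a median GC content of 56.7% in the members and 60.7% in the tested genes. A gene counts once if any of its windows holds a match. Psmb1, Psmb2, Psmc3, Psmd3 and Psmd7 had no matched window in the table used and are not in these counts. These matches are a description of the letters and were not compared with the fold changes by any test.

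None of the 30 transcripts differed between old and young cerebellum past the threshold, and most had a slightly lower mean in old mice. By edgeR's quasi-likelihood test with a term for sex, 0 of 30 passed an adjusted p of 0.05, where 0.12% of the 14191 genes tested did. DESeq2 and limma-voom also called 0 of 30. At an unadjusted p under 0.05 there were 3 members, Psmc2, Psmd2 and Psmd7, all with negative values, which is 10% of the members. Of all genes 11% had such a p, so the members' share with both directions pooled was near the background. By direction, 10% of the members were lower in old mice at that p, against 5.76% of all genes, and none were higher, against 5.25%. Of all genes, 0.0211% passed the adjusted threshold with a lower value in old mice and 0.0987% with a higher one. The smallest adjusted p of any member was 0.233, for Psmd7.

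Of the 30 log2 fold changes, old minus young, 23 (76.7%) were negative, against 51.4% of all genes tested and 55.3% of the 9984 genes within the members' range of mean expression. Their median was -0.12, against -0.01 over all genes and -0.02 over those 9984. The values ran from -0.25 for Psmd7 to 0.23 for Psma3. All 30 of the 95% intervals lay between -0.67 and 0.49, so each excluded a change of 1 on the log2 scale in either direction. The median was -0.07 without young 4 and -0.06 with the granule neuron marker score as a covariate. The granule score of a library is the median deviation of log2 CPM of its markers from their means over the 8 libraries. For old 1 to old 4 it was -0.15, -0.01, 0.13 and -0.35. For young 1 to young 4 it was 0.31, -0.23, -0.06 and 0.38. Markers of granule neurons (13 of 14, median -0.19) and of Purkinje cells (13 of 14, median -0.12) were also mostly negative. So were those of oligodendrocytes (8 of 10, median -0.17) and of astrocytes with Bergmann glia (9 of 12, median -0.12). Endothelial markers were negative in 3 of 10, and those of microglia, choroid plexus, erythroid cells and liver in none. The part of cell makeup in the members' values was not tested further.

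**Figure D1:**
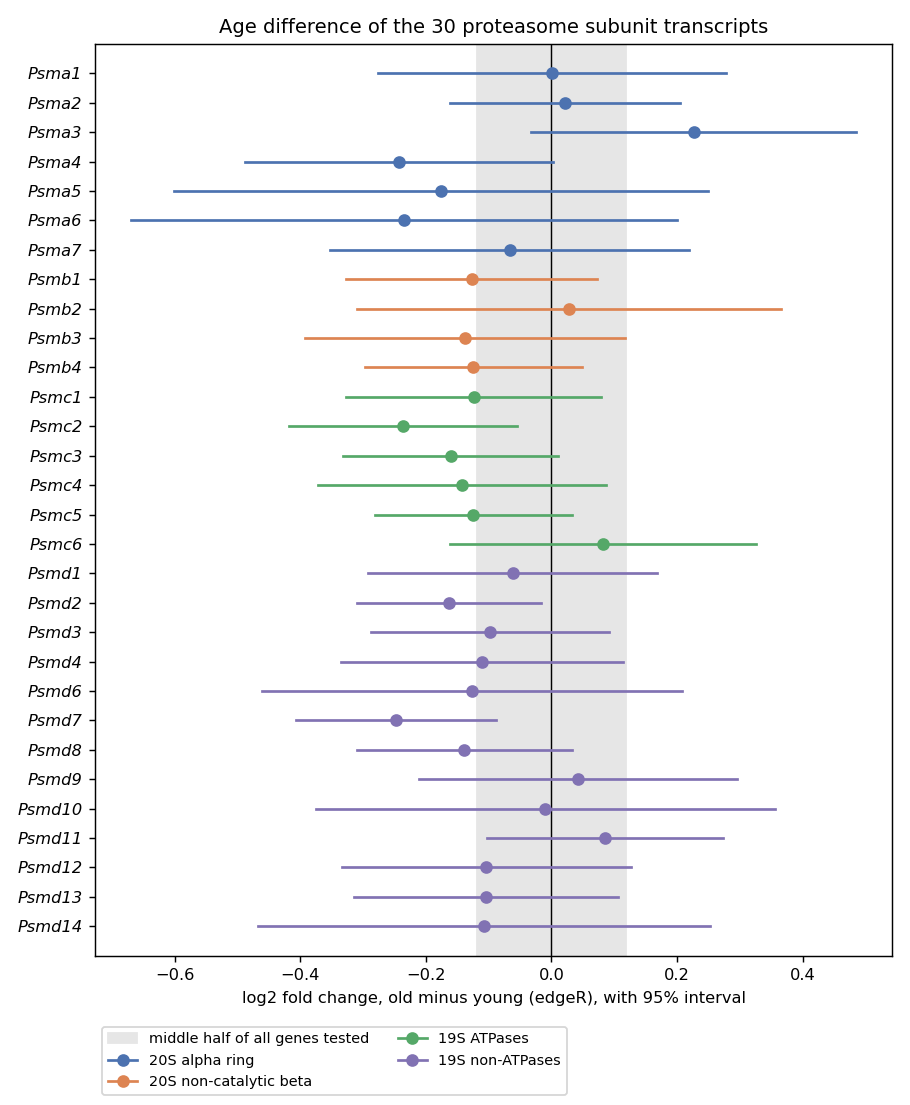
Log2 fold change of each of the 30 transcripts (point, old minus young, edgeR) with its 95% interval (line), coloured by sub-complex. The grey band spans the quartiles of all genes tested; 23 points lie left of 0, and only the intervals of Psmc2, Psmd2 and Psmd7 lie wholly below it.

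The alpha ring was the most divided of the sub-complexes, with 4 negative and 3 positive values around a median of -0.07, and no member passed the threshold. The 7 alpha subunits form the ring whose tails close the entrance of the core. No member of the ring had old and young values that did not overlap, where 3.42% of all genes had every old value lower and 3.15% every old value higher. The ring's median log2 fold change was 0.01 without young 4, -0.01 without old 1 and -0.17 without old 3. The granule score as a covariate brought it to -0.00. Leaving out old 2, old 3 and young 4 together brought it to -0.12, so its size depended on the libraries used. Those left out had the highest sums of liver genes, 84.2, 23.6 and 21.2 CPM, and old 1 was next at 9.63 CPM. Old 1, old 4 and young 1 to young 3 remained.

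Psma3, the subunit alpha7, had 32.4, 40.9, 37.4 and 31.7 CPM in old 1 to old 4. Its young values were 28.4, 26.5, 30.5 and 36.5 CPM in young 1 to young 4. Young 4 stood within the old range and the rest of the young values below it. Psma3 thus gave a log2 fold change of 0.23 ± 0.12 (SE), with an adjusted p of 0.519 by edgeR. Psma3 lies on chromosome 12 at 70974621 to 70996347 (GRCm38), and 665 bases of its transcript are 100% identical to the processed pseudogene Gm13835, so its value is uncertain to the extent that reads are shared.

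Psma4, the subunit alpha3, whose tail is known as a main part of the closed gate, had 37.2, 50.9, 40.3 and 43.2 CPM in old 1 to old 4. In young 1 to young 4 it had 57.8, 47.7, 49.4 and 48.0 CPM. Only old 2 reached into the young range. For Psma4 the log2 fold change was -0.24 ± 0.11 (SE), with an adjusted p of 0.459 by edgeR. Psma4 lies on chromosome 9 at 54950790 to 54958030, and the pseudogene Gm6542 matches 783 of its bases at 96.8% identity.

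Psma6, the subunit alpha1, had 11.2 CPM in old 1 against 25.5, 24.1 and 20.8 CPM in old 2 to old 4. The young values of Psma6 were 25.4, 20.7, 23.9 and 25.8 CPM. The old 1 value thus stood apart from the other seven, on 70 counts. The coefficient of variation among old libraries was 31.4%, where counting alone gives 8.33% at the mean count of the gene. Its log2 fold change was -0.23 ± 0.20 (SE), and between -0.41 and -0.04 when any single library was left out.

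Psma2, the subunit alpha2, was the steadiest of the ring, at 40.1 to 42.9 CPM in old and 37.5 to 42.2 CPM in young libraries. Its log2 fold change was 0.02, with a 95% interval of -0.16 to 0.20. Psma1 (alpha6) ranged from 24.8 to 33.5 CPM in old and 24.5 to 33.7 CPM in young libraries, Psma7 (alpha4) from 34.5 to 48.1 and 37.2 to 48.5 CPM. Psma5 (alpha5) was the lowest of the ring in counts, at 6.58 to 9.28 CPM in old and 7.16 to 11.6 CPM in young libraries. These last 3 had log2 fold changes of 0.00, -0.07 and -0.18, each within its standard error or close to it.

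**Figure D2:**
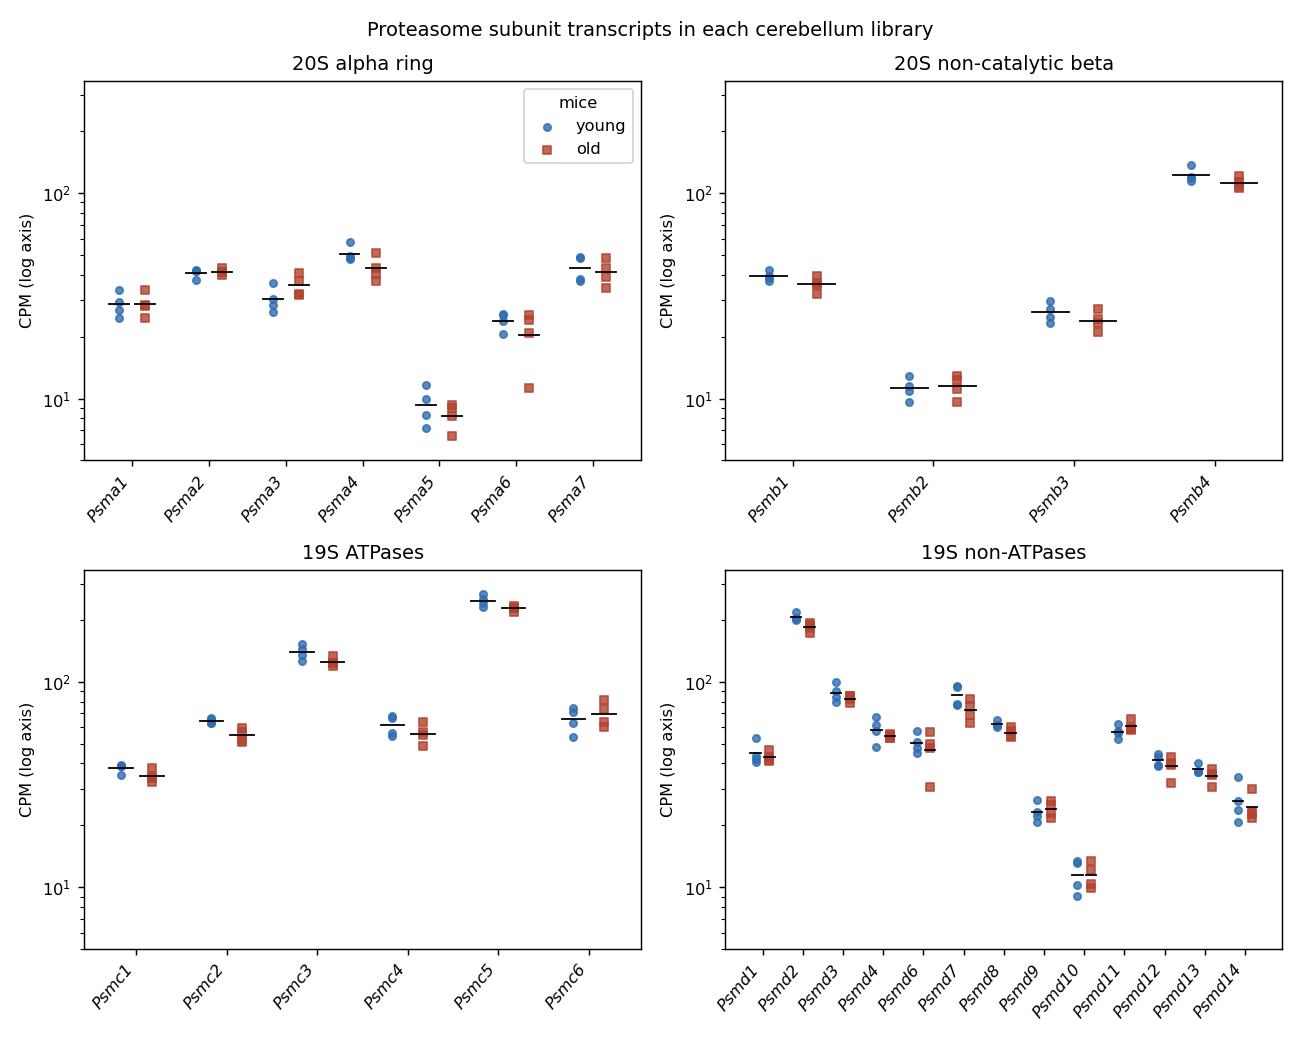
CPM of each transcript in each library (log axis), with young libraries as circles, old libraries as squares and a line at each mean of 4, in 1 panel per sub-complex. Old and young points do not overlap for Psmc2, Psmd2 and Psmd8, and the single low old point of Psma6 is old 1, at 11.2 CPM.

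The 4 non-catalytic beta subunits complete the inner rings without carrying an active site. Of their log2 fold changes 3 were negative and 1 was positive. The median was -0.13 and no gene was called. Psmb4 (beta7), which joins late in the assembly of the core, had 106, 108, 121 and 113 CPM in old 1 to old 4. Its young values were 137, 120, 118 and 115 CPM, and only old 3 lay within that range. The log2 fold change of Psmb4 was -0.12 ± 0.08 (SE), adjusted p 0.608 by edgeR. The gene lies on chromosome 3 at 94884093 to 94886961.

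Psmb1 (beta6) had 32.4, 39.4, 36.6 and 35.5 CPM in old 1 to old 4 and 39.2, 37.5, 38.5 and 41.95 CPM in young 1 to young 4. The young range was narrow and old 2 fell inside it. Its log2 fold change was -0.13 ± 0.09 (SE). Psmb3 (beta3) had 27.1, 24.5, 23.3 and 20.99 CPM in old and 29.8, 24.9, 23.2 and 27.4 CPM in young libraries, a log2 fold change of -0.14 ± 0.12 (SE). Psmb2 (beta4) had 9.63, 11.1, 12.9 and 12.3 CPM in old and 9.62, 11.4, 10.9 and 12.9 CPM in young libraries. The 2 ages spanned the same range of Psmb2, with a log2 fold change of 0.03 ± 0.15 (SE) that turned negative under 5 of the other settings.

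The ATPase ring had 5 negative values and 1 positive, a median of -0.13 and no gene called. These 6 proteins thread the substrate into the core. Psmc2 (Rpt1) had 52.0, 50.7, 59.4 and 57.1 CPM in old 1 to old 4. Its young values were 66.4, 63.0, 65.8 and 63.0 CPM, all above all old ones. The young libraries differed by less than counting error would give, with a coefficient of variation of 2.77% against 5.10%. The log2 fold change was -0.24 ± 0.08 (SE), with an adjusted p of 0.317 by edgeR, and it lay between -0.28 and -0.20 when any single library was left out. Psmc2 lies on chromosome 5 at 21785283 to 21803787.

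Psmc3 (Rpt5), which carries one of the tails that dock into the alpha ring, had 123, 120, 133 and 123 CPM in old 1 to old 4. In young 1 to young 4 the values were 153, 134, 126 and 145 CPM. Old 3 exceeded young 3, and the other old values lay below all young ones. The log2 fold change of Psmc3 was -0.16 ± 0.08 (SE), adjusted p 0.490 by edgeR. Psmc3 shares 215 exonic bases with Slc39a13 on the other strand, and the strand setting of the counts is not known. Unlike the others, Psmc6 (Rpt4) had a positive value, 0.08 ± 0.11 (SE). It had 60.0, 81.6, 63.5 and 73.7 CPM in old and 53.7, 74.5, 62.9 and 71.0 CPM in young libraries, and the ages overlapped. After correction for GC content its log2 fold change was -0.00, and its transcript has a GC content of 37.0%, the lowest of the members.

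Psmc5 (Rpt6) had by far the most counts, at 218 to 234 CPM in old and 230.4 to 266 CPM in young libraries, with a log2 fold change of -0.12 ± 0.07 (SE). Old 4 exceeded young 4, and the other old values lay below all young ones. Psmc4 (Rpt3) ranged from 48.8 to 63.4 CPM in old and 54.5 to 68.3 CPM in young libraries, and Psmc1 (Rpt2) from 32.7 to 38.1 and 35.3 to 39.4 CPM. Their log2 fold changes were -0.14 ± 0.10 and -0.12 ± 0.09 (SE). The direction was kept in all 22 other settings for Psmc1, Psmc2, Psmc3 and Psmc5, in 21 for Psmc4 and in 20 for Psmc6.

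The 13 non-ATPase genes had 11 negative and 2 positive values, a median of -0.10 and no gene called. They include scaffolds, ubiquitin receptors, the deubiquitinating pair and the lid. That median was -0.04 without young 4, and the granule covariate gave -0.05. Psmd7 (Rpn8), the partner of the deubiquitinase Psmd14, had 82.0, 63.2, 76.1 and 69.1 CPM in old 1 to old 4. Its young values were 94.6, 95.5, 77.7 and 77.2 CPM, and old 1 stood above young 3 and young 4. Psmd7 had a log2 fold change of -0.25 ± 0.07 (SE), with an adjusted p of 0.233 by edgeR. Psmd7 lies on chromosome 8 at 107580381 to 107588464.

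Psmd2 (Rpn1), the scaffold that binds ubiquitin shuttle proteins, had 189, 173, 194 and 181 CPM in old 1 to old 4. Its young values were 218, 202, 200.4 and 204 CPM, all above the old ones. For Psmd2 the log2 fold change was -0.16 ± 0.07 (SE), with an adjusted p of 0.403 by edgeR. Psmd2 lies on chromosome 16 at 20651652 to 20663414, and the transcribed pseudogene Gm5422 matches 2726 bases of it at 96.4% identity.

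Psmd8 (Rpn12), a lid subunit added last in lid assembly, had 53.7, 54.4, 60.1 and 57.6 CPM in old and 65.3, 61.6, 60.2 and 61.5 CPM in young libraries. The groups did not overlap, but old 3 and young 3 nearly met. The log2 fold change was -0.14 ± 0.08 (SE), with an adjusted p of 0.555 by edgeR. Psmd8 lies on chromosome 7 at 29174188 to 29180701. In all, 3 of 30 members (10%) had every old value below every young one, against 3.42% of all genes. No member had every old value above, against 3.15%.

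Psmd11 (Rpn6), which clamps the lid to the core, had 65.5, 58.9, 58.3 and 59.7 CPM in old and 57.2, 52.5, 56.1 and 62.3 CPM in young libraries. Young 1, young 2 and young 3 lay below all old values and young 4 lay within the old range. Psmd11 had a log2 fold change of 0.09 ± 0.09 (SE) and stayed positive in all 22 settings. Psmd11 lies on chromosome 11 at 80428615 to 80473248, and the transcript A730017L22Rik matches 1501 of its bases at 97.9% identity. The other positive value of the group was 0.04, for Psmd9.

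Among the remaining scaffolds and receptors, Psmd1 (Rpn2) ranged from 41.2 to 46.5 CPM in old and 40.6 to 53.2 CPM in young libraries. The ubiquitin receptor Psmd4 (Rpn10) ranged from 53.1 to 55.4 CPM in old and 48.1 to 66.9 CPM in young libraries. The old values of Psmd4 lay inside a wider young range, with coefficients of variation of 2.23% and 13.6%. The lid subunits Psmd3, Psmd6, Psmd12 and Psmd13 had log2 fold changes of -0.10, -0.13, -0.10 and -0.10. Psmd6 (Rpn7) repeated the pattern of Psma6, with 30.8 CPM in old 1 and 47.5 to 57.1 CPM in the other old libraries. Its young values were 45.0 to 57.5 CPM.

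Psmd14 (Rpn11), the metalloprotease that removes ubiquitin chains, had 30.2, 23.3, 22.6 and 21.6 CPM in old 1 to old 4 and 20.8, 23.8, 26.4 and 34.2 CPM in young 1 to young 4. The highest values were young 4, a female, and old 1, a male, and the ages overlapped. Psmd9 and Psmd10 encode assembly chaperones of the cap and not subunits of the finished particle. They ranged from 21.7 to 26.2 and 9.95 to 13.4 CPM in old, and from 20.9 to 26.5 and 9.09 to 13.5 CPM in young libraries. Their log2 fold changes were 0.04 ± 0.12 and -0.01 ± 0.17 (SE).

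Summed over a sub-complex, old and young libraries overlapped for all but the ATPases. The 6 ATPases summed to 560.1, 557, 576 and 576 CPM in old 1 to old 4 and to 645, 607, 598 and 616 CPM in young 1 to young 4. Every old sum was below every young sum, with means of 567 ± 10.2 and 616 ± 20.2 CPM (SD, n = 4). These sums rest largely on Psmc5 and Psmc3, which each overlapped between the ages, and no test was made of the sums. How often sums over other sets of genes separate by age was not counted. The 13 non-ATPases summed to 733 ± 13.2 CPM in old and 793 ± 39.1 CPM in young libraries, and old 3 (750.3 CPM) exceeded young 3 (748 CPM).

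The alpha ring summed to 192, 244, 228 and 211 CPM in old 1 to old 4 and to 232, 213, 217 and 246 CPM in young 1 to young 4. Old 1 was the lowest library and old 2 the second highest, so the spread within the old group exceeded the difference of the means. The beta subunits summed to 184 ± 7.75 CPM in old and 199 ± 11.6 CPM in young libraries. Within a library, the ATPase sum was 2.92, 2.29, 2.53 and 2.72 times the alpha ring sum in old 1 to old 4. In young 1 to young 4 the ratio was 2.78, 2.86, 2.75 and 2.50. The 2 ages overlapped in this ratio, and the lowest and the highest values were both old.

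**Figure D3:**
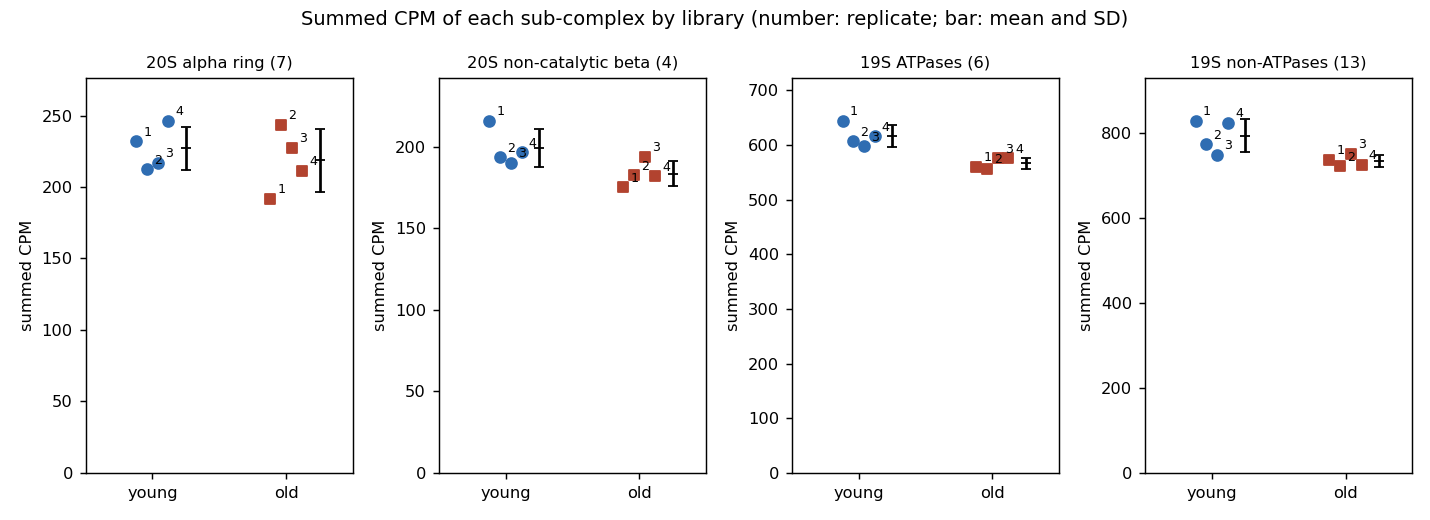
Summed CPM of each sub-complex (axis from 0) in each young and old library, labelled by replicate number, with the mean and SD of 4 beside the points. The 4 old ATPase sums, 557 to 576 CPM, lie below the 4 young ones, 598 to 645 CPM, and the alpha ring sums overlap.

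The libraries of an age were not alike across the members. In young 4, 26 of the 30 members stood above their own mean over the 8 libraries, in young 1 21 and in young 2 17. Young 3, with 11, was closer to the old libraries, which had 8, 14, 11 and 7 in old 1 to old 4. The median deviation of the members on the log2 scale was 0.16 and 0.13 in young 1 and young 4, 0.02 in young 2 and -0.04 in young 3. In old 1 to old 4 it was -0.11, -0.02, -0.01 and -0.05. Young 1 and young 4 also had the 2 highest granule neuron scores given above.

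GC content moved with the members in some libraries. Across the 30 genes, the Spearman correlation of deviation with transcript GC content was -0.56 in old 2 and 0.45 in young 1, and between -0.26 and 0.15 in the other libraries. Over 14080 tested genes it was -0.28 in old 2 and 0.43 in young 1. Genes of 1 library share its depth and preparation, so these are descriptions. Transcripts of the alpha ring had a median GC content of 45.0%, against 49.7% to 51.6% for the other sub-complexes. With a correction for GC content 26 of the 30 members were negative, and their median was -0.11.

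**Figure D4:**
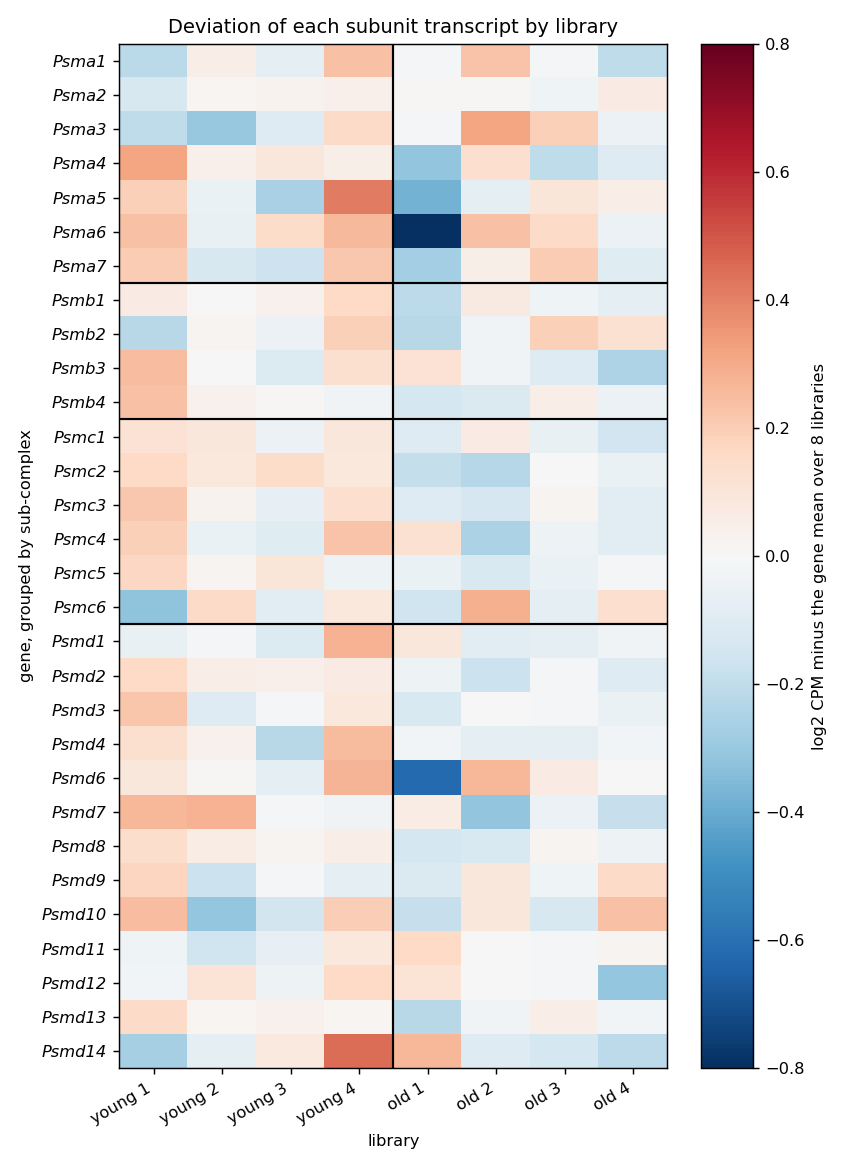
Deviation of log2 CPM from each gene's mean over the 8 libraries (colour), for the 30 genes (rows, split by sub-complex) and libraries (columns, young left and old right). Psma6 and Psmd6 in old 1 are the darkest blue cells, and the young 4 column is above the mean for 26 of 30 genes.

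Levels were compared between genes as CPM per kilobase of annotated exonic length, averaged over the 8 libraries, and spanned 52.2-fold. Psmc5 was the highest at 170 ± 11.2 (SD, n = 8), followed by Psmb4 at 60.1 ± 4.99, Psmc3 at 50.7 ± 4.48, Psmd2 at 48.3 ± 3.49, Psmd7 at 35.1 ± 4.97 and Psmc4 at 27.1 ± 3.11. The ranges over libraries of Psmb4 and Psmc3 overlapped, as did those of Psmc3 and Psmd2, while Psmc5 lay above all others in every library. Of the alpha ring, Psma4 at 19.8 ± 2.74 and Psma6 at 18.0 ± 3.93 were highest and Psma5 at 6.63 ± 1.21 was lowest. The chaperone Psmd9 had the lowest value by this length, 3.26 ± 0.29. The ATPases, each present once per ring, had levels as far apart as 170 for Psmc5 and 11.9 ± 1.19 for Psmc2.

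These levels depend on the length used. The median over the members was taken in each library and averaged over the 8 libraries. It was 14.1 by exonic length and 26.0 by the longest coding transcript. By the longest transcript Psmc5 at 180 and Psmb4 at 99.1 were again the highest, but the span was 25.5-fold and the lowest gene was Psma5 at 7.07, with Psmd9 at 9.09. In the alpha ring Psma7 at 36.4 and Psma1 at 23.9 then stood above Psma6 at 21.3, and the lowest ATPase was Psmc1 at 22.9. The order of the first 7 genes by that length was Psmc5, Psmb4, Psmc3, Psmd2, Psmd7, Psmc4 and Psma4. Psmc2 had 33.4 by that length.

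Between the sexes no member differed past the threshold. By edgeR's quasi-likelihood test 0 of 30 passed, where 0.0423% of all genes did, and DESeq2 and limma-voom also called 0. Of the log2 fold changes, female minus male, 14 were negative and 16 positive, with a median of 0.01, the same as over all genes, of which 47.1% were negative. No member had females all below or all above males, where 0.768% and 1.48% of all genes did. The alpha ring had 6 positive values of 7 and the ATPases 5 negative of 6. Psmd7 was the only member at an unadjusted p under 0.05, where 4.76% of all genes were.

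Psmd7 had 63.2 and 69.1 CPM in the old females and 82.0 and 76.1 CPM in the old males. In young mice the females had 77.7 and 77.2 CPM and the males 94.6 and 95.5 CPM. At each age both females were below both males, by a log2 fold change of -0.28 ± 0.07 (SE), with an adjusted p of 0.930 by edgeR. The age value of Psmd7 was alike in both sexes, -0.27 ± 0.11 (SE) in males and -0.23 ± 0.11 (SE) in females.

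The interaction of age and sex was past the threshold for no member, and for 0% of all genes, by edgeR. At an unadjusted p under 0.05 there was 1 member, Psmd14, against 2.3% of all genes. Its log2 fold change with age was 0.24 ± 0.20 (SE) in males and -0.44 ± 0.19 (SE) in females, a difference of -0.68 ± 0.28 (SE) with an adjusted p of 0.9999. The value within each sex compares 2 old with 2 young mice, and the difference uses all 8 libraries. The SEs come from 1 fit to all 8.

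The catalytic beta subunits that complete the core were compared next. The constitutive subunits Psmb5, Psmb6 and Psmb7 had log2 fold changes of -0.35 ± 0.10, -0.07 ± 0.09 and -0.16 ± 0.12 (SE), none past the threshold. Psmb5, the chymotrypsin-like site, had 33.5, 34.7, 42.6 and 40.2 CPM in old and 52.1, 48.9, 45.0 and 46.4 CPM in young libraries. The groups of Psmb5 did not overlap, and its adjusted p was 0.229 by edgeR. Psmb8 and Psmb9, interferon-induced replacements in the immunoproteasome, had 6.57 ± 1.76 and 2.06 ± 0.47 CPM in old and 3.10 ± 0.44 and 0.996 ± 0.320 CPM (SD, n = 4) in young mice. Every old value of Psmb8 and of Psmb9 lay above every young value of the same gene. Their log2 fold changes were 1.07 ± 0.25 and 1.01 ± 0.37 (SE). Neither passed the threshold, at adjusted p of 0.145 and 0.343 by edgeR, and Psmb10 had -0.01. Psmb9 rests on few reads, with 4 to 10 counts per young library and 11 to 16 per old one. Its young counts alone would have been too few for the filter's minimum of 10. It was thus tested because of the age at which it is higher, and the size of its change is uncertain. Psmb8 had an adjusted p of 0.042 with age in weeks and 0.0453 without old 2, old 3 and young 4. The 12 microglia markers were all positive at a median of 0.77, and their part in the Psmb8 value was not tested.

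Assembly and regulation genes were read from the same fit, and none of them passed. The chaperones Psmd9 (0.04) and Psmd10 (-0.01) are members and were not counted here. All 6 other tested assembly chaperones had negative values, with a median of -0.16. Among them were Psmd5, a chaperone of the cap, at -0.18 ± 0.08 and Pomp, the maturation factor of the core, at -0.14 ± 0.08 (SE). Of the 2 other cap subunits, the ubiquitin receptor Adrm1 had -0.15 ± 0.12 and Sem1 0.00 ± 0.13 (SE). Alternative caps, the inhibitor and Ecpas had 5 positive values of 6, with a median of 0.07. The inhibitor Psmf1 had 31.8 to 33.2 CPM in old and 27.8 to 30.1 CPM in young libraries, without overlap, and a log2 fold change of 0.14 ± 0.09 (SE). Psme2, a subunit of the interferon-induced PA28 cap, had -0.26 ± 0.17 (SE).

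Among 9 deubiquitinases and shuttle factors 6 values were negative and the median was -0.06. Uchl5, a deubiquitinase of the cap, had 18.1, 17.8, 18.2 and 19.7 CPM in old and 26.2, 25.4, 21.6 and 21.2 CPM in young libraries. All its old values lay below the young ones, with a log2 fold change of -0.35 ± 0.11 (SE) and an adjusted p of 0.274 by edgeR. Of 9 ubiquitin and p97 genes 5 were negative, with a median of -0.04. Uba1, the main ubiquitin-activating enzyme, had 338, 292, 317 and 301 CPM in old and 371, 352, 374 and 355 CPM in young libraries. These groups did not overlap either, with a log2 fold change of -0.22 ± 0.07 (SE) and an adjusted p of 0.276 by edgeR.

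The genes around NRF1 had 5 positive values of 6, with a median of 0.12. The exception was Nfe2l1 itself, with 512, 451, 460 and 502 CPM in old and 581, 570, 563 and 456 CPM in young libraries. Young 1, young 2 and young 3 lay above all old values of Nfe2l1, and young 4 lay inside the old range. Its log2 fold change was -0.17 ± 0.09 and that of the related factor Nfe2l2 was 0.29 ± 0.14 (SE), with adjusted p of 0.516 and 0.469 by edgeR.

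The COP9 signalosome, a complex built from subunits related to the proteasome lid, served as a comparison. It had 5 negative values among 9 genes and a median of -0.01, with no gene past the threshold. Cops6, the counterpart of Psmd7, had 72.5 to 79.0 CPM in old and 82.0 to 107 CPM in young libraries, without overlap. Cops6 gave a log2 fold change of -0.27 ± 0.09 (SE), with an adjusted p of 0.278 by edgeR. Cops5, the counterpart of Psmd14, had -0.18 ± 0.12 (SE). The difference between this complex and the proteasome members was not tested.

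**Figure D5:**
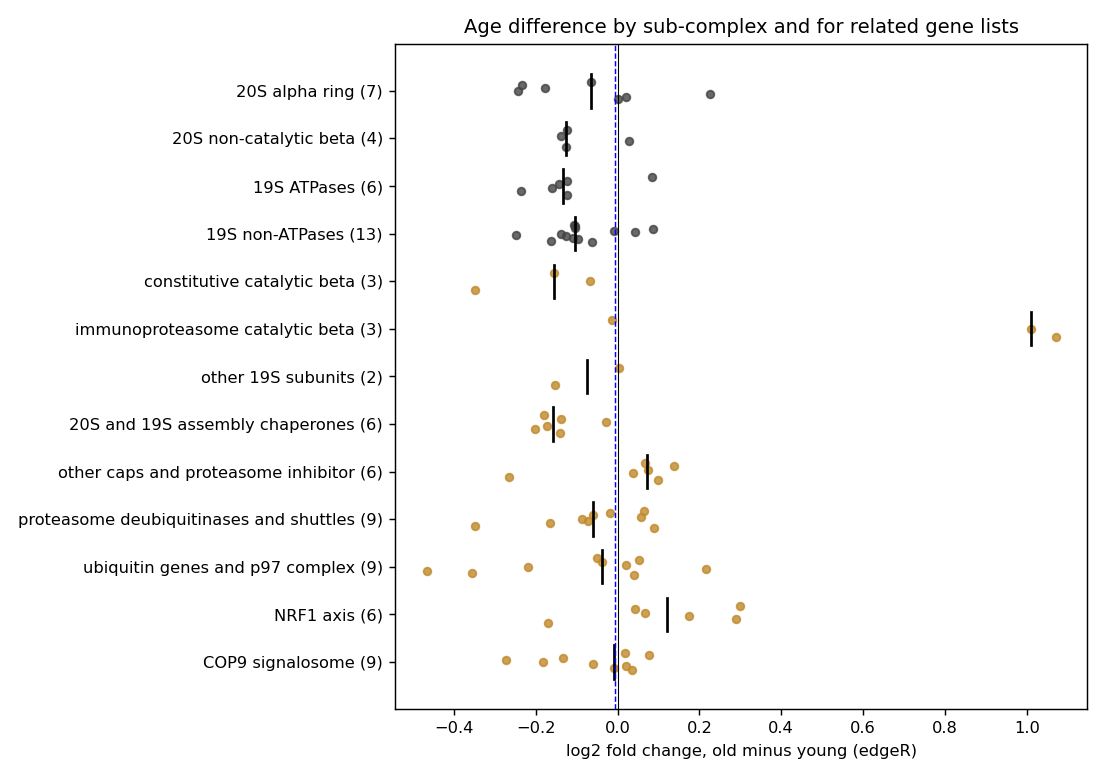
Log2 fold change (old minus young, edgeR) of each gene (point) by sub-complex (grey) and related list (ochre), with the number of genes in brackets, a black bar at each median, and a dashed line at the median of all genes, -0.01. Medians run from -0.16 for assembly chaperones and for catalytic subunits to 0.12 for the NRF1 axis, apart from the immunoproteasome at 1.01. That last median is the value of Psmb9, which had few counts. The chaperones Psmd9 and Psmd10 are shown with the non-ATPases.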

How the data were processed

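Total RNA of frozen cerebellum was extracted with Trizol and columns with DNase digestion, and ribosomal-depleted libraries were made, per the labels' protocols. Tissue, age and sex follow the labels of each sample, since the series' design text speaks of liver and further ages. The authors deposited 1 table of raw, whole-number read counts per gene for each library; no scaling is recorded, per the file headers. The submitters' processing notes name Trimmomatic 0.39, STAR 2.7.5b, featureCounts, GRCm38 and mm10. Which annotation and strand setting were used, and how multi-mapping reads were handled, is not given in the sources used here. Spreadsheet dates replace 24 gene names in 7 of the 8 tables, which were joined by row.

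Genes were kept by filterByExpr (minimum 10 counts, age-by-sex cells), leaving 14191. Genes were tested by the robust quasi-likelihood method of edgeR 4.0.16 under R 4.3.3, with its newer dispersion method, TMM scaling and terms for age and sex, adjusted by Benjamini-Hochberg over all genes. Standard errors were derived from each log2 fold change and its F statistic (size divided by root F), intervals use the t distribution with the test's degrees of freedom, and log2 CPM uses a prior count of 2. The script was tested on simulated data. Chi-square per degree of freedom was at least 3.81 between any 2 libraries, so none were duplicates. Positions, lengths and GC content are from GENCODE M21 (GRCm38), which matched 17587 genes. Of the 30 members, 9 match another annotated gene at 95% identity or more over at least 300 bases (blastn), 2 of them a gene in the count tables. For Psmd1 (Gm21972) and Psmd13 (Sirt3) that gene overlaps the member at its own locus and is not a separate copy. The others are Psma3, Psma4, Psma5, Psmb3, Psmc1, Psmd2 and Psmd11, whose values are uncertain to the extent that reads are shared. Psma4, Psmc3, Psmd1 and Psmd13 also share exonic bases with a listed gene on the other strand.

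Members with values in every library were the 2 smallest p and the extremes of each sub-complex and all whose ages do not overlap. Psma6 and Psmd14 were added after their values were seen. Up to 2 genes with the smallest p were named from each related list, some of which are not reported here, and further genes of these lists were added after their values were seen. The members and lists were chosen with earlier results of these data known. Alternatives were other scalings, tests (DESeq2 1.42.0, limma 3.58.1), filters, covariates, a GC correction, each sex alone and each library left out.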

Additional observations from a re-analysis of the deposited data

Results flagged for a closer look

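Among 68 groups of 4 libraries examined, for 30 members and 4 sub-complex sums at each age, 3 held a library far from the rest by Dixon's criterion at the 95% level. Chance alone flags about 1 in 20 groups. In young mice, Psma2 was at 37.5 CPM in young 1, below 41.6 CPM or more in the others. Psmc1 was at 35.3 CPM in young 3, below 38.7 CPM or more. Psmd13 was at 40.0 CPM in young 1, above 36.8 CPM or less.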

How the results depend on the processing

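No member passed the threshold for age under any of the 22 other settings. The number of negative members was 20 to 26 over them, lowest without young 4 and without old 2, old 3 and young 4, and their median lay between -0.14 and -0.06. With each library left out in turn, the median was -0.18 to -0.11 for the ATPases, -0.15 to -0.08 for the beta subunits, -0.13 to -0.04 for the non-ATPases (-0.041 without young 4) and -0.17 to 0.01 for the alpha ring. With the granule score as a covariate the non-ATPase median was -0.051.

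The number of genes past the threshold for age, 17, was 125 by DESeq2, 1 by limma-voom, 26 with older dispersions, 103 with age in weeks, 184 without old 2, old 3 and young 4, and 96 with the granule score. It was 0 in male and 1 in female mice alone, which have fewer samples, and 0 to 63 with each library left out (0 without young 3 or young 4, 2 without old 1 or young 1, 8 without young 2, 49 without old 3 and 63 without old 2). For sex the count was 6, and 4 to 46 with each library left out (46 without old 3), and for the interaction 0, and 0 to 2 (2 without old 1 or old 3). The causes were not tested. With the replicate number as a block, 1 gene passed for age and no member did. The numbers pair no samples in the labels, and same-numbered old and young libraries had correlations of deviations of 0.24, -0.22, 0.01 and -0.06 over 2000 variable genes.

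Of the 13 members named by the rule, Psmb2 and Psmc6 changed direction in some settings and the others in none. Psmb2 was -0.019 by limma-voom, -0.019 in females alone and -0.073 to 0.096 with each library left out. Psmc6 was -0.0012 after GC correction and -0.051 in males alone. Sem1, at 0.00 in the main fit, was -0.018 with age in weeks, -0.087 after GC correction, -0.065 without old 2, old 3 and young 4, -0.10 in males alone and -0.092 to 0.084 with each library left out. The median level of the members in a library, averaged over libraries, was 26.0 CPM per kilobase with the longest coding transcript. The widest intervals of the age difference were those of Psma6, with a low value in old 1, and of Psma5, the member with the fewest counts.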
